A study of Mus musculus with 8 samples.

Results

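Noncollagenous proteins of the bone matrix were followed through 4 sorted populations of neonatal bone marrow stroma. The group was chosen by gene name and holds 7 of the 15880 genes in the table, namely *Spp1*, *Ibsp*, *Dmp1*, *Mepe*, *Bglap*, *Bglap2* and *Ifitm5*. Each has 1 identifier in the table. Bone is laid down as a scaffold of type I collagen, and a smaller set of secreted acidic proteins binds its mineral and its cells. *Spp1* (osteopontin), *Ibsp* (bone sialoprotein), *Dmp1* and *Mepe* belong to the SIBLING family, whose genes lie side by side and whose proteins carry an RGD motif read by integrins. *Bglap* and *Bglap2* encode osteocalcin, which binds mineral through residues that are carboxylated with vitamin K, and *Ifitm5* encodes a membrane protein of osteoblasts.

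The cells came from mouse pups on postnatal day 1 that were heterozygous for the *Nes-Gfp* transgene on a C57BL/6 background, in which regulatory elements of the rat nestin gene drive GFP. Crushed bones were digested with collagenase, and cells negative for CD45, CD31 and Ter119 were sorted by GFP and by surface Pdgfrα. The populations are GFP+ Pdgfrα+, GFP+ Pdgfrα-, GFP- Pdgfrα+ and GFP- Pdgfrα- cells, with 2 libraries each and 8 in all. A library was made from amplified cDNA of 15000 to 80000 cells, pooled from 3 pups. GFP reports the transgene and not the nestin protein itself, and a pool hides the differences between pups.

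A normalized value is the number of reads of a gene plus 0.5, per 1000000 reads of effective library size. The GFP+ Pdgfrα+ libraries held 3564158 and 3329432 recovered reads, and the GFP+ Pdgfrα- libraries 3644103 and 3427644. The GFP- Pdgfrα+ libraries held 3869275 and 3221217, and the GFP- Pdgfrα- libraries 4058258 and 5302762. The value of 3 reads lay between 0.825 and 1.04 and serves as the floor of a library. Floors and counting intervals cover counting error only, since amplified reads are not independent molecules. Populations were compared with limma on log2(value + 1), with p adjusted over all genes and a threshold of 0.05 for a call. The smallest two-sided p of an exact permutation test is 0.333 for 2 libraries per side, so each p rests on a spread shared between genes.

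*Ibsp* (ENSMUSG00000029306; chromosome 5, 104728190 to 104740488, plus strand, NCBIM37) encodes a sialoprotein found at sites of new mineral. Its normalized values were 2466 and 1774 in GFP+ Pdgfrα+ cells, 152 and 135 for GFP+ Pdgfrα- cells, 61.6 and 38.2 for GFP- Pdgfrα+ cells, then 8.47 and 13.1 in GFP- Pdgfrα- cells. No library of a population overlapped with those of another. The mean was 2120 ± 489 (SD of 2 libraries, n = 2) in GFP+ Pdgfrα+ cells, with 49.9 ± 16.6 (SD of 2 libraries, n = 2) in GFP- Pdgfrα+ cells, a 42.5-fold difference (log2 fold change 5.40, standard error 0.25, adjusted p = 9.32e-07). Against GFP+ Pdgfrα- cells, at 143 ± 12 (SD of 2 libraries, n = 2), it was 14.8-fold higher (log2 fold change 3.86, standard error 0.25, adjusted p = 8.5e-07). In these bulk libraries, fewer cells that express a gene and less RNA per cell cannot be told apart.

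*Spp1* (ENSMUSG00000029304; chromosome 5, 104864137 to 104870069, plus strand) encodes osteopontin, which is also made by many cells outside bone. Its normalized values were 6048 and 3915 in GFP+ Pdgfrα+ cells, 494 and 393 for GFP+ Pdgfrα- cells, 287 and 174 for GFP- Pdgfrα+ cells, then 85.4 and 77.5 in GFP- Pdgfrα- cells. The 4 populations did not overlap, and their order was that of *Ibsp*. *Spp1* was 21.6-fold higher in GFP+ Pdgfrα+ cells than in GFP- Pdgfrα+ cells (log2 fold change 4.44, standard error 0.24, adjusted p = 1.34e-06) and 11.2-fold higher than in GFP+ Pdgfrα- cells (3.46 as log2 fold change, adjusted p = 1.32e-06). Per kilobase of exon, its mean level in GFP+ Pdgfrα+ cells was 3023, against 1025 for *Ibsp*, 90.4 for *Ifitm5*, 79.9 for *Bglap2*, 64.9 for *Dmp1*, 63.0 for *Bglap* and 1.49 for *Mepe*. The divisor was the union of all annotated exons, such as 618 bases for *Bglap* and 471 for *Bglap2*. The order of genes with close levels depends on this choice.

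*Dmp1* (ENSMUSG00000029307; chromosome 5, 104631632 to 104643121, plus strand) encodes a phosphoprotein that is typical of osteocytes. Its normalized values were 216 and 143 in GFP+ Pdgfrα+ cells, 45.5 and 33.3 for GFP+ Pdgfrα- cells, 3.40 and 6.98 for GFP- Pdgfrα+ cells, then 2.15 and 2.00 in GFP- Pdgfrα- cells. The GFP+ Pdgfrα- libraries thus lay nearer to the GFP+ Pdgfrα+ libraries than for any other called member. *Dmp1* was 34.6-fold higher in GFP+ Pdgfrα+ cells than in GFP- Pdgfrα+ cells (log2 fold change 4.90, standard error 0.33, adjusted p = 9.21e-06) and 4.55-fold higher than in GFP+ Pdgfrα- cells (log2 fold change 2.14, standard error 0.33, adjusted p = 0.000549).

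*Mepe* (ENSMUSG00000053863; chromosome 5, 104754348 to 104767630, plus strand), a phosphoglycoprotein of osteocytes, was near the floor, with 26 reads over the 8 libraries. It had 14 and 3 reads in GFP+ Pdgfrα+ cells, 3 and 4 for GFP+ Pdgfrα- cells, 0 and 1 for GFP- Pdgfrα+ cells, then 0 and 1 in GFP- Pdgfrα- cells. The GFP+ Pdgfrα+ and GFP+ Pdgfrα- libraries overlapped. The ratio of GFP+ Pdgfrα+ to GFP- Pdgfrα+ cells was 17.6, with a counting interval of 2.75 to 734 (95%, exact), and it was not called (log2 fold change 1.31, adjusted p = 0.125). Without GFP+ Pdgfrα+ replicate 2 it was 1.97 (adjusted p = 0.0287), and the difference from GFP+ Pdgfrα- cells was 1.32 (adjusted p = 0.049) in place of 0.67 (adjusted p = 0.323). *Mepe* was called only against GFP- Pdgfrα- cells (1.35 as log2 fold change, adjusted p = 0.0206), and this call was lost without GFP+ Pdgfrα+ replicate 1 (0.69, adjusted p = 0.157), without GFP- Pdgfrα- replicate 1 (1.23, adjusted p = 0.101) and without GFP- Pdgfrα- replicate 2 (1.47, adjusted p = 0.0537), with median centring (0.87, adjusted p = 0.109) and with the compared populations alone (adjusted p = 0.0542).

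**Figure D1:**
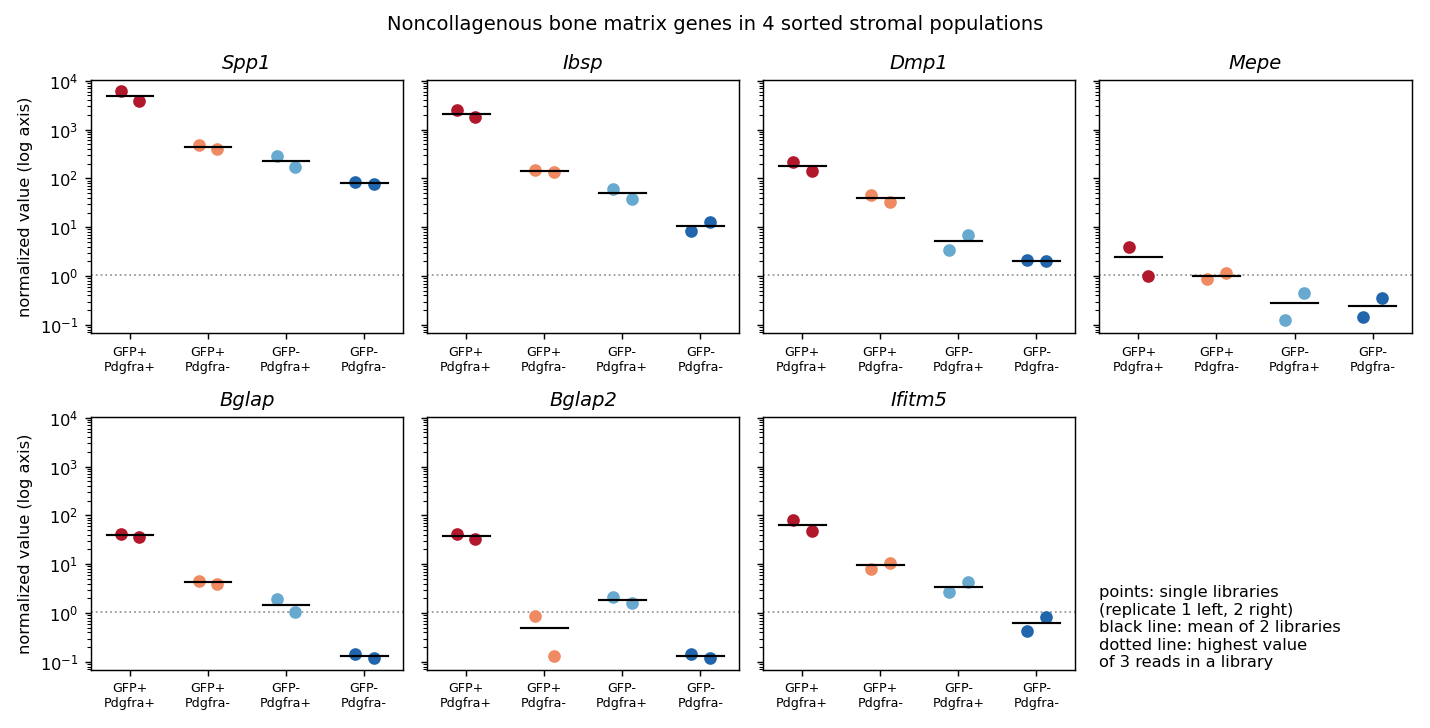
Normalized values of the 7 matrix genes on a log axis, with 1 point per library, a black line at the mean of the 2 libraries of a population and a dotted line at 1.04, the highest value of 3 reads in a library. The 2 GFP+ Pdgfrα+ libraries are the highest for each gene except *Mepe*, and *Bglap2* is the 1 gene whose GFP+ Pdgfrα- libraries, at 0.85 and 0.129, lie below the GFP- Pdgfrα+ libraries, at 2.14 and 1.63.

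*Bglap* (ENSMUSG00000074483; chromosome 3, 88187423 to 88188386, minus strand) and *Bglap2* (ENSMUSG00000074486; chromosome 3, 88181658 to 88182621, minus strand) are neighbours with nearly the same transcript. Their longest coding transcripts, of 440 and 471 bases, were identical at 436 of 471 aligned positions (92.6%), and 292 of the 391 stretches of 50 bases in *Bglap* (74.7%) also occur in *Bglap2*. Reads from such stretches fit both genes, so the split between them depends on how the authors' quantification shared them. *Bglap* had values of 42.4 and 35.5 in GFP+ Pdgfrα+ cells, 4.49 and 3.99 for GFP+ Pdgfrα- cells, with 1.89 and 1.04 in GFP- Pdgfrα+ cells. *Bglap2* had values of 42.4 and 32.9 in GFP+ Pdgfrα+ cells, 0.85 and 0.129 for GFP+ Pdgfrα- cells, with 2.14 and 1.63 in GFP- Pdgfrα+ cells. Both had 0 reads in the GFP- Pdgfrα- libraries. The paralogs were thus alike in GFP+ Pdgfrα+ cells, and GFP+ Pdgfrα- cells held 18 and 15 reads of *Bglap* but 3 and 0 of *Bglap2*.

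*Bglap* was 26.6-fold higher in GFP+ Pdgfrα+ cells than in GFP- Pdgfrα+ cells (log2 fold change 4.03, standard error 0.38, adjusted p = 0.000122), and *Bglap2* 19.9-fold (log2 fold change 3.74, standard error 0.40, adjusted p = 0.000269). Against GFP+ Pdgfrα- cells, *Bglap* was 9.19-fold higher (log2 fold change 2.93, adjusted p = 0.000162). For *Bglap2* that ratio was 100.4, with a counting interval of 34.0 to 490 (95%, exact; log2 fold change 4.73, adjusted p = 6.62e-06). Its size depends on how the shared reads were split. GFP+ Pdgfrα+ cells held 267 reads of *Bglap2* and 276 of *Bglap*, and GFP+ Pdgfrα- cells 3 and 33. Against GFP- Pdgfrα- cells, *Bglap* was at least 42.6-fold higher and *Bglap2* at least 41.1-fold higher, with the floor of 3 reads taken in each library.

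*Ifitm5* (ENSMUSG00000025489; chromosome 7, 148134862 to 148136138, minus strand) encodes a protein of mineralizing osteoblasts. Its normalized values were 81.1 and 47.0 in GFP+ Pdgfrα+ cells, 8.13 and 10.7 for GFP+ Pdgfrα- cells, 2.65 and 4.31 for GFP- Pdgfrα+ cells, then 0.431 and 0.825 in GFP- Pdgfrα- cells. No populations overlapped. It was 18.4-fold higher in GFP+ Pdgfrα+ cells than in GFP- Pdgfrα+ cells (log2 fold change 3.83, standard error 0.39, adjusted p = 0.000186) and 6.81-fold higher than in GFP+ Pdgfrα- cells (log2 fold change 2.60, standard error 0.39, adjusted p = 0.000471). Its family members *Ifitm1*, *Ifitm2* and *Ifitm3*, which restrict the entry of viruses, are its neighbours on the chromosome. None of the 3 was called in GFP+ Pdgfrα+ against GFP- Pdgfrα+ cells, where their log2 fold changes were 1.03 (adjusted p = 0.18), -0.28 (adjusted p = 0.397) and -0.62 (adjusted p = 0.21). Against GFP+ Pdgfrα- cells all 3 were called higher, like *Ifitm5*, *Ifitm1* by 1.65 (adjusted p = 0.00989), *Ifitm2* by 1.44 (adjusted p = 5.33e-05) and *Ifitm3* by 0.92 (adjusted p = 0.0201). Of all genes, 13.1% were called higher in that comparison. The call of *Ifitm1* was lost without GFP+ Pdgfrα- replicate 1 (adjusted p = 0.0982), and that of *Ifitm3* without GFP+ Pdgfrα+ replicate 1 (adjusted p = 0.143), GFP+ Pdgfrα- replicate 1 (adjusted p = 0.163) or GFP+ Pdgfrα- replicate 2 (adjusted p = 0.064) and without a trend (adjusted p = 0.0822).

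Between the Pdgfrα+ populations, 6 of the 7 genes were called higher in GFP+ Pdgfrα+ cells, against 3.22% of all genes. The same number was called higher than in GFP+ Pdgfrα- cells, against 13.1% of all genes. All 7 were called higher than in GFP- Pdgfrα- cells, against 32.9% of all genes, where the call of *Mepe* depended on the setting. In 6 of the 7, both GFP+ Pdgfrα+ libraries exceeded the other 6 libraries, against 7.12% of all genes. *Mepe* was the exception in each count below 7. These comparisons share the GFP+ Pdgfrα+ libraries.

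GFP+ Pdgfrα- cells held the next highest mean levels of 6 of the 7 genes, and the share of all genes with this order was not computed. Of the 6, *Mepe* was near the floor, with 7 reads against 1 in GFP- Pdgfrα+ cells, and was not called (adjusted p = 0.322). *Ibsp* was 2.87-fold lower in GFP- Pdgfrα+ cells than in GFP+ Pdgfrα- cells (-1.54 as log2 fold change, adjusted p = 0.0006) and *Dmp1* 7.59-fold lower (log2 fold change -2.75, adjusted p = 6.51e-05). In all, 5 of the 7 genes were called lower in GFP- Pdgfrα+ cells, against 13.5% of all genes. *Bglap2* went the other way (log2 fold change 0.99, adjusted p = 0.0895), and with no trend it was called higher in GFP- Pdgfrα+ cells (adjusted p = 0.0441). *Spp1* was called at a log2 fold change of -0.97 (adjusted p = 0.00845), but not without GFP+ Pdgfrα- replicate 1 (-0.81, adjusted p = 0.114) or GFP- Pdgfrα+ replicate 2 (-0.62, adjusted p = 0.121), nor with no trend (adjusted p = 0.0709). *Ifitm5* (-1.23, adjusted p = 0.0337) lost its call without GFP+ Pdgfrα- replicate 1 (adjusted p = 0.0877), GFP+ Pdgfrα- replicate 2 (adjusted p = 0.186), GFP- Pdgfrα+ replicate 1 (adjusted p = 0.192) or GFP- Pdgfrα+ replicate 2 (adjusted p = 0.0546), with a pseudocount of 0.1 (adjusted p = 0.0587) and with voom (adjusted p = 0.103). *Bglap* was at -1.11 (adjusted p = 0.0472), and at -0.42 (adjusted p = 0.443) when its reads were summed with those of *Bglap2*. With the replicate number as a block, the adjusted p of *Bglap* was 0.051, and it was 0.0757 with a pseudocount of 0.1, 0.0939 with voom and 0.0617 with the compared populations alone. It was also above the threshold without GFP+ Pdgfrα- replicate 1 (0.179), GFP+ Pdgfrα- replicate 2 (0.121), GFP- Pdgfrα+ replicate 1 (0.0643), GFP- Pdgfrα+ replicate 2 (0.23), GFP- Pdgfrα- replicate 1 (0.054) or GFP- Pdgfrα- replicate 2 (0.0535). The count of 5 fell to 2 without GFP+ Pdgfrα- replicate 1 or GFP- Pdgfrα+ replicate 2, and to 3 without GFP+ Pdgfrα- replicate 2 or GFP- Pdgfrα+ replicate 1.

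GFP- Pdgfrα- cells had the lowest mean level of each of the 7 genes, but at the floor *Mepe* overlapped there with GFP- Pdgfrα+ and *Bglap2* with GFP+ Pdgfrα- libraries. With GFP, 5 of the 7 genes were higher among Pdgfrα- cells by the test, against 30.1% of all genes, and with Pdgfrα, 6 of the 7 were higher among GFP- cells, against 32.9%. Of these 6, *Dmp1* lost its call with the compared populations alone (adjusted p = 0.0938), no trend (0.0506), median centring (0.214) and voom (0.265). *Bglap* and *Bglap2* lost theirs with median centring (adjusted p = 0.163 and 0.0754), and *Ifitm5* with voom (adjusted p = 0.07). *Ibsp* was 13.3-fold higher in GFP+ Pdgfrα- cells than in GFP- Pdgfrα- cells (3.64 as log2 fold change, adjusted p = 1.49e-07) and 4.63-fold higher in GFP- Pdgfrα+ cells than in GFP- Pdgfrα- cells (2.1 as log2 fold change, adjusted p = 1.24e-05). The count of 6 was 3 without GFP- Pdgfrα- replicate 2, and 3 when each library was centred on its median log2 value, which was 3.20 and 3.26 in GFP- Pdgfrα- cells and between 3.67 and 3.73 in the others. The erythroid list (8 of 10 genes in the table) reached a sum of 13762 and 21839 for the GFP- Pdgfrα- libraries, with *Hbb-b1* the most abundant, and of between 39.5 and 165 in the other 6. The sort took Ter119-negative cells, and the part of erythroid RNA in the low matrix levels was not tested.

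The effect of GFP was compared between Pdgfrα+ and Pdgfrα- cells on the scale of log2(value + 1). A larger effect among Pdgfrα+ cells was called for 4 of the 7 genes, and not for *Dmp1*, *Ifitm5* (1.16, adjusted p = 0.109) and *Mepe* (0.63, adjusted p = 0.45), against 19.1% of all genes called in that direction. The difference was 2.01 for *Spp1* (standard error 0.33, adjusted p = 0.000405) and 1.76 for *Ibsp* (standard error 0.35, adjusted p = 0.00144). For *Dmp1* it was 1.2 (adjusted p = 0.0532), and 1.49 (adjusted p = 0.0466) without GFP+ Pdgfrα+ replicate 2 and 1.63 (adjusted p = 0.0173) without GFP- Pdgfrα+ replicate 2. Median centring made the count 6, with *Dmp1* at 1.63 (adjusted p = 0.0113) and *Ifitm5* at 1.58 (adjusted p = 0.0299). With voom or edgeR the count was 2. GFP- Pdgfrα- cells had 0 reads of *Bglap* and *Bglap2*. For *Bglap*, the difference of 1.82 (adjusted p = 0.0155) was 1.57 (adjusted p = 0.0572) without GFP- Pdgfrα+ replicate 2, 0.46 (adjusted p = 0.681) with a pseudocount of 0.1, and turned to -0.19 with voom and -2.13 with edgeR. For *Bglap2*, the difference of 3.38 was not called with voom (3.02, adjusted p = 0.112) or edgeR (0.79, adjusted p = 0.743).

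The summed share of the 7 genes among all reads was 0.904% and 0.621% in GFP+ Pdgfrα+ libraries, 0.0797% and 0.0653% in GFP+ Pdgfrα- libraries, 0.0367% and 0.0236% in GFP- Pdgfrα+ libraries, and 0.00823% and 0.00745% in GFP- Pdgfrα- libraries. The share of the mitochondrial ribosomal RNA *mt-Rnr2* was 9.52% to 10.8% in the 4 Pdgfrα+ libraries, 17.6% and 15.6% in GFP+ Pdgfrα- libraries, with 27.2% and 29.1% in GFP- Pdgfrα- libraries, and its part in the matrix differences was not tested. Relative to its mean in GFP+ Pdgfrα+ cells, the level in GFP+ Pdgfrα- cells was 22.0% for *Dmp1*, 14.7% for *Ifitm5*, 10.9% for *Bglap*, 8.90% for *Spp1*, 6.75% for *Ibsp* and 1.30% for *Bglap2*. For *Mepe*, which was near the floor and not called between them, it was 40.1%. The same share was 1.92% for *Pdgfra*, the gene of the sorted marker. In each library, *Dmp1* was also set against *Ibsp*. Its value was 8.75% and 8.06% of that of *Ibsp* in GFP+ Pdgfrα+ cells, and 30.0% and 24.7% in GFP+ Pdgfrα- cells. It was 5.52% and 18.3% for GFP- Pdgfrα+ cells, with 25.4% and 15.3% for GFP- Pdgfrα- cells, so the GFP+ Pdgfrα- libraries lay above those of GFP+ Pdgfrα+ cells but overlapped with GFP- Pdgfrα- replicate 1.

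Markers of other cells were highest in the GFP+ Pdgfrα- population for 3 lists. The 7 genes of the Schwann cell precursor list summed to 449 and 419 there, to 97.6 and 64.5 in GFP+ Pdgfrα+ cells, and to at most 39.7 in the other 4 libraries, and *Erbb3* was the most abundant in the GFP+ Pdgfrα- libraries. The muscle list summed to 769 and 803 in GFP+ Pdgfrα- cells, where *Pax7* was the most abundant, and to 66.1 and 61.9 in GFP+ Pdgfrα+ cells, against 32.7 and 27.8 for GFP- Pdgfrα+ cells. The list of pericytes and smooth muscle summed to 1838 and 2395 in GFP+ Pdgfrα- cells, where *Rgs5* was the most abundant (731 and 1035), and to 452 and 363 in GFP+ Pdgfrα+ cells, against 354 and 371 for GFP- Pdgfrα+ cells. In the latter 2 populations *Cspg4* was the most abundant, at 205 and 146 and at 254.8 and 259.7, and *Rgs5* was at 69.5 and 70.6 and at 35.2 and 48.3. *Rgs5* was not called between them (0.75, adjusted p = 0.139), but was with a replicate block (adjusted p = 0.0354) and without GFP- Pdgfrα- replicate 1 (adjusted p = 0.0336) or 2 (adjusted p = 0.0345). In GFP+ Pdgfrα+ against GFP- Pdgfrα+ cells, 4, 2 and 2 of the 7 genes of these lists were also called higher, against 3.22% of all genes. The 4 became 2 without GFP+ Pdgfrα+ replicate 1 or GFP- Pdgfrα+ replicate 1. The muscle count became 1 without either GFP+ Pdgfrα+ library or GFP- Pdgfrα+ replicate 2. The pericyte count became 1 without GFP+ Pdgfrα+ replicate 1, either GFP+ Pdgfrα- library or either GFP- Pdgfrα+ library, and 4 without either GFP- Pdgfrα- library. Their part in the matrix levels of GFP+ Pdgfrα- and GFP+ Pdgfrα+ cells was not tested. The tendon list, led by *Thbs4*, was highest in GFP- Pdgfrα+ cells, at 2835 and 2738, and all 5 of its genes were lower in GFP+ Pdgfrα+ cells than in GFP- Pdgfrα+ cells, against 2.13% of all genes.

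*Spp1* is also made by osteoclasts and macrophages, and both *Spp1* and *Ibsp* by hypertrophic chondrocytes. The macrophage and blood list (7 of 10 genes in the table) summed to 5.11 and 15.7 in GFP+ Pdgfrα+ cells. Its most abundant gene over all 8 libraries, *Lyz2*, had 1.52 and 2.44 there and *Cd68* 1.80 and 3.02. The osteoclast list (6 of 11 genes in the table) summed to 142 and 175 in GFP+ Pdgfrα+ cells and to 217 and 219 in GFP- Pdgfrα+ cells, with *Nfatc1* the most abundant in both. Of its genes, 1 was higher and 1 lower in GFP+ Pdgfrα+ cells than in GFP- Pdgfrα+ cells, and 0 were lower without GFP+ Pdgfrα+ replicate 1 or either GFP- Pdgfrα+ library. Over all genes, 3.22% were higher and 2.13% lower in this comparison. Of the osteoclast enzymes, *Ctsk* had values of 39.9 and 51.3 in the GFP+ Pdgfrα+ libraries, whereas *Acp5* had 0.967 and 1.58 there and 97.2 and 108 in the GFP- Pdgfrα- libraries. The chondrocyte list (11 of 13 genes in the table) summed to 1355 and 1219 in GFP+ Pdgfrα+ cells and to 712 and 2213 in GFP- Pdgfrα+ cells. This list mixes hypertrophic with other chondrocytes, and only its most abundant genes are named. The part of hypertrophic chondrocytes in the *Spp1* and *Ibsp* levels was not tested. *Mmp13* made up 675 and 546 of the GFP+ Pdgfrα+ sums and *Col2a1* 175 and 280, whereas *Col2a1* was at 273 and 1498 in the GFP- Pdgfrα+ libraries (-1.53, adjusted p = 0.269; 0.0134 with a replicate block). *Col11a2* was at 338 and 254 in the GFP+ Pdgfrα+ libraries and at 32.4 and 83.3 in the GFP- Pdgfrα+ libraries. *Acan* was at 60.1 and 56.8 and at 189 and 245 in the same order. The shares over all genes were again 3.22% higher and 2.13% lower. Of the list, 2 genes were higher and 4 lower in GFP+ Pdgfrα+ cells than in GFP- Pdgfrα+ cells, or 2 lower without GFP- Pdgfrα+ replicate 2. The endothelial list, in which *Tek* had the highest mean, summed to between 34.0 and 129 over the 8 libraries, and limma called 0 of its 7 genes for GFP+ Pdgfrα+ against either GFP- Pdgfrα+ or GFP+ Pdgfrα- cells (0 at an unadjusted p < 0.05, 0 with voom and 0 with edgeR).

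The regulators and enzymes of mineralized matrix were compared next. Of 11 osteoblast transcription factors in the table, 7 were higher in GFP+ Pdgfrα+ cells than in GFP- Pdgfrα+ cells by limma and 0 lower, with a median log2 fold change of 2.36 (0.00 over all genes). Examples are *Mef2c* (2.88, adjusted p = 1.97e-05) and *Runx2*, the master regulator of osteoblasts (2.36, adjusted p = 0.000181). Of 9 genes for bone collagen and mineralization, 6 were higher and 0 lower (median 1.46), against 3.22% and 2.13% of all genes. *Alpl*, the phosphatase that frees phosphate for mineral, rose by 3.00 (adjusted p = 4.15e-05) and *Col1a1* by 1.46 (adjusted p = 0.000569). Of 8 matrix kinases and proteases, 2 were higher and 0 lower (median 0.10), of which *Bmp1* (0.90, adjusted p = 0.0315) lost its call without GFP+ Pdgfrα+ replicate 1 (adjusted p = 0.23), GFP- Pdgfrα+ replicate 1 (adjusted p = 0.246) or GFP- Pdgfrα+ replicate 2 (adjusted p = 0.126), without a trend (adjusted p = 0.151) and with a pseudocount of 0.1 (adjusted p = 0.0541). In each of these 3 lists, 0 genes were also lower at an unadjusted p < 0.05, with voom and with edgeR. Of 7 osteocyte markers, 2 were higher and 1 lower (median 0.13), against 3.22% and 2.13% of all genes. Without any 1 of the GFP+ Pdgfrα+ or GFP- Pdgfrα+ libraries 0 of these were lower, without either GFP- Pdgfrα- library 2 were lower, and without GFP- Pdgfrα+ replicate 2 only 1 was higher. *Phex*, an endopeptidase on both lists, was higher by 3.20 (adjusted p = 4.68e-06).

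Other noncollagenous proteins were called in both directions between the Pdgfrα+ populations. Of 16 in the table, 3 were higher and 4 lower in GFP+ Pdgfrα+ cells than in GFP- Pdgfrα+ cells (median -0.26), against 3.22% of all genes higher and 2.13% lower, with 0 higher and 2 lower without GFP+ Pdgfrα+ replicate 1, GFP- Pdgfrα+ replicate 1 or GFP- Pdgfrα+ replicate 2, whereas 15 were higher and 0 lower than in GFP+ Pdgfrα- cells by limma (median 2.57; 0 lower at an unadjusted p < 0.05, with voom and with edgeR), against 13.1% of all genes called higher and 11.1% lower there. *Sparc*, the most abundant of them by the mean over the 8 libraries, was higher by 1.15 (adjusted p = 0.0122) between the Pdgfrα+ populations. It was not called without GFP+ Pdgfrα+ replicate 1 (0.97), GFP- Pdgfrα+ replicate 1 (1.18) or GFP- Pdgfrα+ replicate 2 (1.13), nor without a trend (adjusted p = 0.11). In GFP- Pdgfrα+ cells the mean of *Postn* was above that of *Sparc*, at 11989 against 8919. *Postn*, which encodes periostin, was lower in GFP+ Pdgfrα+ cells than in GFP- Pdgfrα+ cells (-1.29 as log2 fold change, adjusted p = 0.000141) and higher than in GFP+ Pdgfrα- cells (2.53, adjusted p = 1.55e-07). *Bgn*, a small proteoglycan, had a log2 fold change of -0.44 (adjusted p = 0.19) between the Pdgfrα+ populations, which was called without GFP- Pdgfrα- replicate 1 (adjusted p = 0.0177) or replicate 2 (adjusted p = 0.0176) and with voom (adjusted p = 0.00587), and was 2.96 higher than in GFP+ Pdgfrα- cells (adjusted p = 4.99e-07).

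Partners of these proteins were compared between the Pdgfrα+ populations, where 3.22% of all genes were called higher in GFP+ Pdgfrα+ cells and 2.13% lower. Of 11 receptors that bind matrix proteins, mostly integrins, 0 were higher and 1 lower in GFP+ Pdgfrα+ cells than in GFP- Pdgfrα+ cells (median -0.23) by limma, with 1 higher at an unadjusted p < 0.05 and 0 with voom or edgeR. The lower one, *Itga5* (-0.96, adjusted p = 0.0228), lost its call without GFP+ Pdgfrα+ replicate 1 (adjusted p = 0.166) or 2 (adjusted p = 0.056) and without GFP- Pdgfrα+ replicate 1 (adjusted p = 0.17) or 2 (adjusted p = 0.146), and without either GFP- Pdgfrα- library 1 receptor was higher and 2 were lower. *Itgb1* differed by 0.16 (adjusted p = 0.614). Of the 4 genes of the vitamin K cycle, limma called 0 in either direction (median 0.16), though 1 was higher at an unadjusted p < 0.05, 1 with voom and 1 with edgeR, and limma called 1 higher without either GFP- Pdgfrα- library. Of 6 osteocalcin cluster and other Gla protein genes, 2 were higher and 1 lower (0 lower without either GFP- Pdgfrα+ library, 2 lower without either GFP- Pdgfrα- library). *Mgp*, the matrix Gla protein that restrains mineral, had a log2 fold change of -0.77 (adjusted p = 0.12), which was called without GFP- Pdgfrα- replicate 1 (adjusted p = 0.0147) or replicate 2 (adjusted p = 0.0173), with voom (adjusted p = 0.0185) and with the compared populations alone (adjusted p = 0.0169).

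Genes whose log2 values over the 8 libraries were much like the mean pattern of the 7 include *Vdr* (Pearson's r = 0.990), *Mmp13* (0.990), *Mef2c* (0.989), *Slc13a5* (0.982), *Sema7a* (0.981), *Dlx3* (0.980), *Galnt3* (0.980), *Syt6* (0.977) and *Phex* (0.975), among 10954 genes with a mean value of at least 5. The libraries fall into 4 populations, so r mostly follows the population means and is given as a description. By single gene, the nearest pattern was *Mef2c* for *Ibsp* (0.996) and *Ifitm5* (0.993), *Vdr* for *Spp1* (0.999), *Mmp13* for *Bglap* (0.999) and *Phex* for *Dmp1* (0.980). It was *Tnks2* for *Bglap2* (0.992) and *Rel* for *Mepe* (0.936). *Slc13a5*, a citrate transporter, had a mean of 161 ± 14 (SD of 2 libraries, n = 2) in GFP+ Pdgfrα+ cells, with 1.87 ± 0.75 (SD of 2 libraries, n = 2) in GFP- Pdgfrα+ cells (5.85 as log2 fold change, adjusted p = 1.34e-06). *Vdr*, the vitamin D receptor, differed by 3.59 (adjusted p = 4.99e-05), and *Mmp13*, a collagenase, by 4.42 (adjusted p = 9.32e-07). *Slc13a5*, *Vdr* and *Mmp13* are given here for their likeness to the members in the same libraries. Their differences thus follow from the choice, and their adjusted p values are no separate evidence.

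*Dmp1*, *Ibsp*, *Mepe* and *Spp1* lie on the plus strand within 238438 bases of chromosome 5 (104631632 to 104870069, NCBIM37). *Dspp*, the dentin member of the family, lies beside them at 104599731 to 104609146 and is not among the genes analysed here. Within 200000 bases of this span, 6 other protein-coding genes were in the table, and 1 was called higher and 1 lower in GFP+ Pdgfrα+ cells than in GFP- Pdgfrα+ cells. Of all genes, 3.22% were called higher and 2.13% lower. The 6 neighbours were chosen by position after the values were seen. *Sparcl1*, a relative of osteonectin, had a log2 fold change of 0.65 (adjusted p = 0.188), which was called with voom (adjusted p = 0.0205), with the compared populations alone (adjusted p = 0.0321) and without GFP- Pdgfrα- replicate 1 (adjusted p = 0.0136) or 2 (adjusted p = 0.0146). *Pkd2*, downstream of *Spp1*, was at -0.81 (adjusted p = 0.0134) and *BC005561* at 0.92 (adjusted p = 0.0208). Leaving out any 1 of the GFP+ Pdgfrα+ or GFP- Pdgfrα+ libraries ended both calls, with adjusted p of *Pkd2* of 0.0619 and 0.0957 without GFP+ Pdgfrα+ replicates 1 and 2 and 0.123 and 0.117 without GFP- Pdgfrα+ replicates 1 and 2, and of *BC005561* of 0.0734, 0.119, 0.18 and 0.0603 in the same order.

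**Figure D2:**
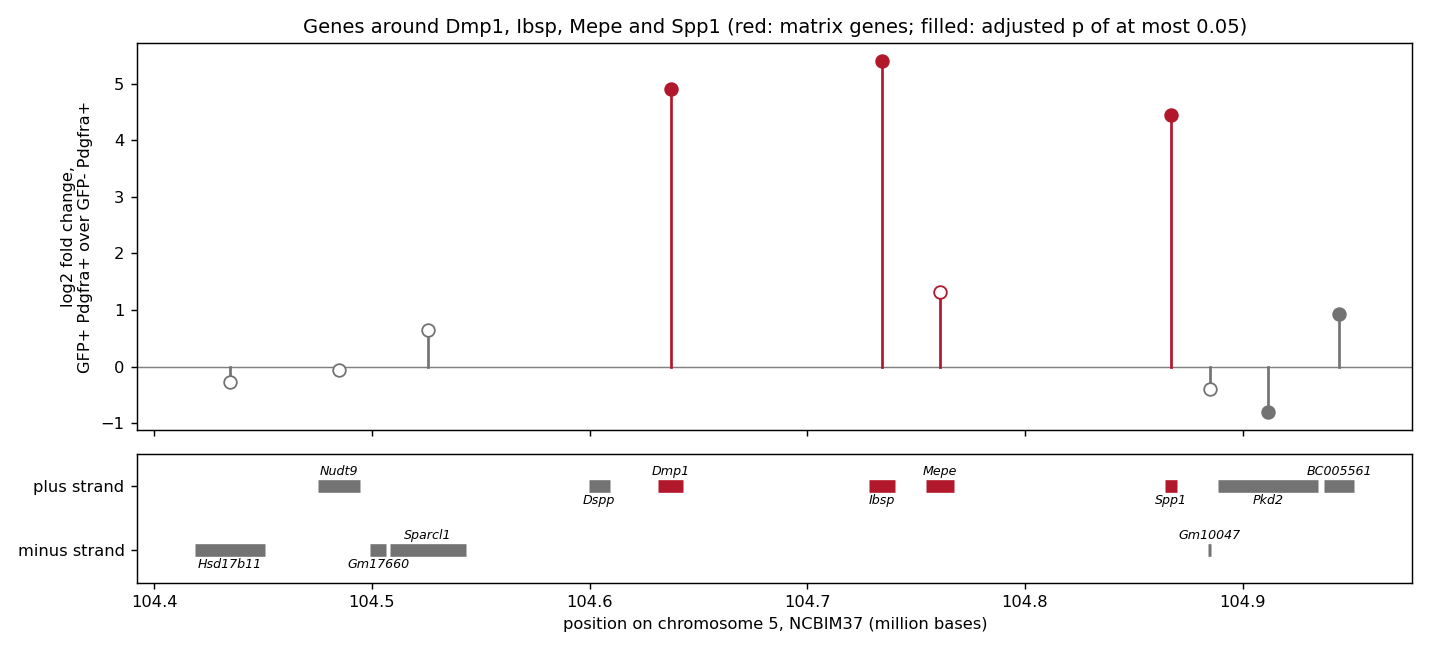
Log2 difference between GFP+ Pdgfrα+ and GFP- Pdgfrα+ cells (upper panel, y axis; above 0 is higher in the former) by position on chromosome 5 of NCBIM37 in bases (x axis), with gene spans by strand in the lower panel, matrix genes in red and filled points for an adjusted p of at most 0.05. *Dmp1*, *Ibsp* and *Spp1* stand at 4.90, 5.40 and 4.44, and the 6 neighbours in the table lie between -0.81 and 0.92.

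Promoter sequences from RefSeq (GRCm38.p6) were matched for 6 of the 7 genes, with 8 windows, and *Bglap2* was not matched. The 250 bases before each start were searched on both strands for 5 motifs. ACCACA, the core bound by Runx factors, was found in 4 of the 8 windows and in 14% of all 32851 windows. TATAAA was found in 4 of 8 (12.4% of all), CCAAT in 6 of 8 (33.8%), TAATTA, a homeodomain core, in 2 of 8 (4.84%) and GGGCGG in 1 of 8 (32.7%). A match describes letters and not a bound site. Those of *Ibsp* (chr5:104299037-104299286, plus strand), *Bglap* (chr3:88384467-88384716, minus strand) and *Ifitm5* (chr7:140950244-140950493, minus strand) are shown because these genes rose together in GFP+ Pdgfrα+ cells and each has 1 window. Capitals mark the motifs found.
Ibsp: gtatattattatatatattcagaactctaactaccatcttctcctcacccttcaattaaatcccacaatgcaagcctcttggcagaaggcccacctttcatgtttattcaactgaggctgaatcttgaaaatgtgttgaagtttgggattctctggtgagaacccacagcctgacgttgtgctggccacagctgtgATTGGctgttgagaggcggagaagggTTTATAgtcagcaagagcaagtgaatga
Bglap: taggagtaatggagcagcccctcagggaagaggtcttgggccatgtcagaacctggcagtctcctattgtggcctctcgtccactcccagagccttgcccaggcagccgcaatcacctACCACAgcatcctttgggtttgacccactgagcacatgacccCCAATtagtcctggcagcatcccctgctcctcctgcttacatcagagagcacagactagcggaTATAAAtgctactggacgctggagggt
Ifitm5: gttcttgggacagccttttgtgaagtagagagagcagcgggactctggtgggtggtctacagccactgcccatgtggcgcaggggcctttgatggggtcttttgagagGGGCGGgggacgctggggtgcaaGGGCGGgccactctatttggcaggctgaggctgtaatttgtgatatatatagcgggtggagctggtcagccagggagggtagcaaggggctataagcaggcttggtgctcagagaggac
In a check of the start, bases just after it occurred in a transcript of the gene for *Ibsp* and *Ifitm5* but not for *Bglap*, whose positions are thus less sure. The check also failed for the *Dmp1* window from 104197325 and the *Spp1* window from 104434861, which are not shown but enter the motif counts. Each of them holds CCAAT, and that of *Spp1* also holds ACCACA and TATAAA. In *Bglap*, ACCACA lies at -132 to -127, CCAAT at -90 to -86 and TATAAA at -27 to -22 from the start. In *Ibsp*, TATAAA lies on the opposite strand at -28 to -23 and CCAAT on the opposite strand at -54 to -50. The window of *Ifitm5* holds GGGCGG at -142 to -137 and at -119 to -114.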

How the data were processed

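RNA-seq of 8 libraries was used. The authors trimmed reads with cutadapt, quantified them with RSEM on the NCBIM37 transcriptome, filtered low counts and normalized with voom and limma. The deposited values are a normalized signal on a linear scale. Whole reads were recovered from 100% of the values (within 0.1 of a whole number). The stated filter of over 2 per 1000000 reads in at least 2 samples was not met by 1645 of the 15880 genes in the recovered reads, and all were tested. All 7 matrix genes were in the table, but which genes a filter removed was not analysed here. Normalization factors recomputed with TMM were close to the deposited ones, the widest gap being 0.759 against 0.8 in GFP- Pdgfrα- replicate 2. Identifiers were matched by GENCODE M1 of the same build, and 15849 matched.

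Values were put on log2(value + 1) for a fit by lmFit and a trended eBayes of limma (version 3.58.1; R version 4.3.3; 1 coefficient per population, 4 residual degrees of freedom), with Benjamini–Hochberg adjustment over all genes. All 3 tools were tested on the same simulated reads. For limma the reads were scaled by effective library sizes, as the deposited values are, and voom and edgeR took the reads themselves. A first self-test, scaled by plain totals, gave false calls in limma. In the final one, on the same simulated reads, limma made fewer false calls with effective sizes than with plain totals. The median log2 fold change over all real genes was between -0.03 and 0.00 among the 3 other populations, and 0.15 to 0.20 against GFP- Pdgfrα- cells.

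The study describes its replicates as independent sets from pooled littermates, so libraries with the same replicate number may share a pool. Their deviations from population means correlated at 0.004 to 0.081, and a replicate block is among the alternatives. The others were the compared populations alone, no trend, median centring, a pseudocount of 0.1, a filter at 2 in at least 2 libraries, voom and edgeR 4.0.16 on recovered reads, summed osteocalcin paralogs and leaving out each library. Named genes are the 7, up to 4 of each of 19 lists by mean level, all SIBLING, osteocalcin and *Ifitm* genes, *Pdgfra*, *Nes*, the 10 nearest patterns to the mean and the nearest to each member. *Sparcl1*, *Pkd2* and *BC005561*, by position, and *mt-Rnr2*, by its share of reads, were added after the values were seen. Some genes that meet this rule are not reported here. The members and lists were chosen with earlier results of these data known. Python 3.11.15 served for tables, with pandas 2.3.3 and numpy 2.4.6, for intervals with scipy 1.17.1, and for plots with matplotlib 3.10.9.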

Additional observations from a re-analysis of the deposited data

Results flagged for a closer look

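The effect of GFP differed between Pdgfrα+ and Pdgfrα- cells for 4 of the 7 matrix genes, by limma's test of the difference on log2(value + 1). The difference was 1.76 for *Ibsp*, 2.01 for *Spp1*, 1.82 for *Bglap* and 3.38 for *Bglap2*, each a larger increase with GFP among Pdgfrα+ cells. For *Ibsp* and *Spp1* it was also called with voom and with edgeR on the recovered reads. For *Bglap* it was 0.46 (adjusted p = 0.681) with a pseudocount of 0.1, -0.19 with voom and -2.13 with edgeR, and 1.57 (adjusted p = 0.0572) without GFP- Pdgfrα+ replicate 2. For *Bglap2* it was 3.02 (adjusted p = 0.112) with voom and 0.79 (adjusted p = 0.743) with edgeR. Both have 0 reads in GFP- Pdgfrα- cells, and *Bglap2* has 3 and 0 in GFP+ Pdgfrα- cells, so the size of their GFP effect among Pdgfrα- cells is not set by the counts.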

How the results depend on the processing

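The counts of matrix genes called in GFP+ Pdgfrα+ cells against each other population, and in GFP+ Pdgfrα- against GFP- Pdgfrα- cells, stayed within 1.5 times their value under each of the 17 alternatives. Leaving out a library gave 6 to 7, 6 to 7, 6 to 7 and 5 to 5 genes in these comparisons. For GFP- Pdgfrα+ against GFP+ Pdgfrα- cells, the count of 5 was 3 with a pseudocount of 0.1 and 3 with voom, and 2 to 5 when a library was left out. For GFP- Pdgfrα+ against GFP- Pdgfrα- cells, the count of 6 was 3 with median centring, and 3 to 6 when a library was left out. For the difference in the GFP effect, the count of 4 was 2 with voom and 2 with edgeR, 6 with median centring and 4 to 5 when a library was left out. In the difference of *Bglap*, the sign turned with voom (-0.19) and edgeR (-2.13). The cause of these changes was not tested. The fit with a replicate block ended 1 member's call, that of *Bglap* between GFP- Pdgfrα+ and GFP+ Pdgfrα- cells (block-adjusted p = 0.051). Where a library was left out, its population had 1 library, which was assumed to vary like the others. Depth limits *Mepe*, with 26 reads in all, and both osteocalcin genes outside GFP+ Pdgfrα+ cells.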

Other observations

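*Dmp1* was the matrix gene with the highest level in GFP+ Pdgfrα- relative to GFP+ Pdgfrα+ cells among those called between them, at 22.0%, and *Phex*, the nearest pattern to *Dmp1*, was at 41.2 ± 3.4 (SD of 2 libraries, n = 2) in GFP+ Pdgfrα- cells, with 147 ± 0.78 (SD of 2 libraries, n = 2) in GFP+ Pdgfrα+ cells. *Slc13a5* had 13.7 ± 0.68 (SD of 2 libraries, n = 2) in GFP+ Pdgfrα- cells, with 1.87 ± 0.75 (SD of 2 libraries, n = 2) in GFP- Pdgfrα+ cells, and the GFP- Pdgfrα+ minus GFP+ Pdgfrα- difference in log2 was -2.39 (adjusted p = 0.000155). Both *Phex* and *Slc13a5* are given here for their likeness to members in the same libraries, so their levels are a description and no separate evidence.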
